A study of Homo sapiens with 4 samples.

Results

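The genes described here are the Wnt target and crypt stem cell genes LGR5, ASCL2, EPHB2, MYC, AXIN2, NKD1, RNF43, ZNRF3, TCF7 and LEF1. They were taken by gene symbol, and all 10 were present among the 27685 genes of the series. HT-29 is a colon cancer epithelial cell line. The control cells (wild type in the labels) carried a control vector (Mock), and the Myc-TRIM40 cells stably overexpressed TRIM40, a TRIM family E3 ubiquitin ligase, with an N-terminal Myc tag. Both were grown in RPMI with serum and received no treatment, and each had 1 RNA-seq library in each of 2 experiments, which gave 4 libraries in all. Whether the stable lines were single clones or pools is not given in the sources used here, so a difference between the lines and an effect of TRIM40 cannot be told apart. The comparison asked how the transcriptome of HT-29 cells differed when TRIM40 was overexpressed.

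Canonical Wnt signalling works through beta-catenin. Without a Wnt signal, a destruction complex built on APC and an Axin protein marks beta-catenin for degradation, and with a signal beta-catenin accumulates and binds TCF/LEF factors on DNA. In the intestinal crypt this pathway keeps the stem cells at the base dividing, and many of the genes it switches on are brakes on the pathway itself. In colon cancer the pathway is commonly active without a ligand because APC is truncated, and HT-29 is such a line.

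TRIM40 itself had 0 reads in both controls, whereas the Myc-TRIM40 cells had 272646 reads of it in experiment 1 and 110665 in experiment 2. The libraries held between 60954602 and 67424698 reads assigned to transcripts. The summed FPKM (reads per transcript length and library total) lay between 6364 and 8960 for 9 epithelial markers, all detected although CDH17 and CDX1 were under 1, and between 0.891 and 1.39 for 6 fibroblast markers, of which 3 had no reads. The 6 leukocyte markers summed to 1365 to 1869, nearly all of it from LYZ. CD68 lay at 5.86 to 11.9 and CD14 at 1.43 to 2.61, while PTPRC was at most 0.0118 and 2 markers had no reads. The control library of experiment 2 stood apart from the others: its read-weighted mean transcript length was 2899 bases, against 3412 to 3664 bases in the other libraries. With all tested genes ranked by transcript length and split into 5 equal bins, the longest bin in experiment 2 had a median log2 ratio of Myc-TRIM40 over control of 0.46 and the shortest bin a median of -0.44, while the same medians in experiment 1 were 0.03 and -0.03. Of the 9 members tested, 6 were in the longest 2 bins. Reads were assigned to the transcripts of a gene by the authors' program, and such assignments are estimates.

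No member passed the test. Of the 10 members, 9 had enough reads for the test and 0 had an adjusted p under 0.05 by edgeR's quasi-likelihood test with the experiment as a block, where the background was 0.0605% of the 14868 genes tested. DESeq2 also called 0 members, against a background of 0.363%. At an unadjusted p under 0.05 edgeR picked 2 members, NKD1 and ASCL2, where 4.54% of all tested genes passed, and DESeq2 picked 1, RNF43, where 3.65% passed. The standard errors of the members' log2 fold changes ran from 0.20 to 0.39. The fitted log2 fold change was above 0 for 6 members and below 0 for 3, with a median of 0.25, against 0.04 over all tested genes.

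The members spanned a wide range of levels. Averaged over the 4 libraries, MYC was the highest at an FPKM of 136, followed by RNF43, then by AXIN2 at 21.8, TCF7 at 17.2, ZNRF3 at 13.1, ASCL2 at 4.15, LGR5 at 1.48, EPHB2 at 0.421, NKD1 at 0.203 and LEF1 at 0.004. The order was the same by TPM. The 4 values of MYC lay above every value of every other member, and ASCL2 was separate from ZNRF3 above it and LGR5 below it. The other neighbours in the order down to NKD1 overlapped in their ranges over the libraries. Compared within each library, however, these neighbours kept their order. The exception was the control of experiment 2, in which RNF43, at 12.5, lay below AXIN2, at 16.6.

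**Figure D1:**
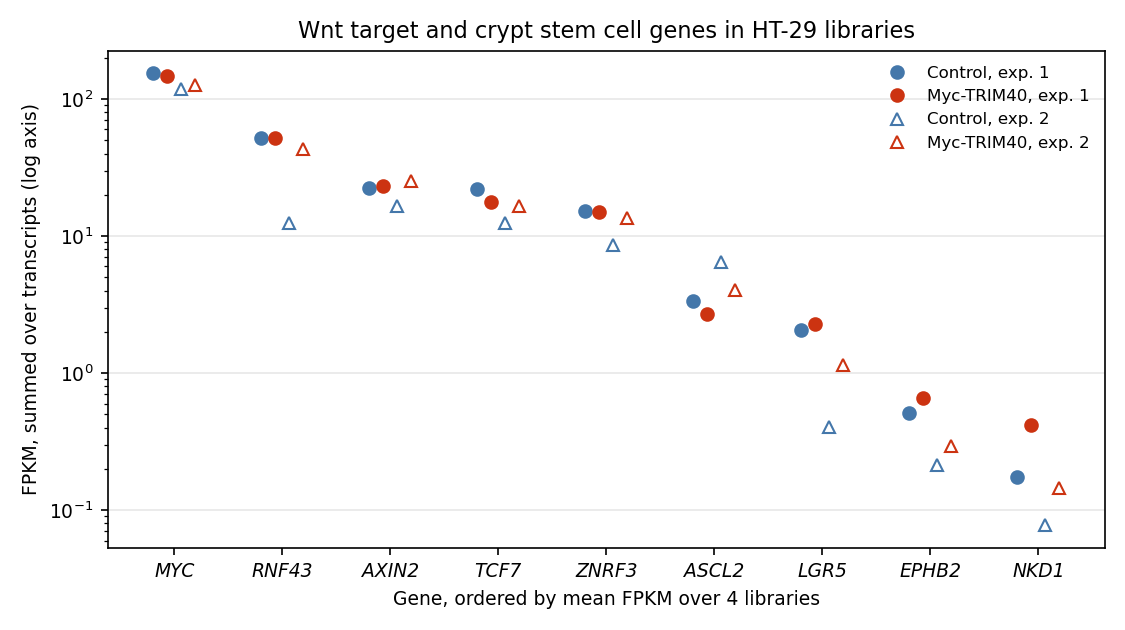
FPKM (log axis) of the 9 tested members in each library, with control in blue, Myc-TRIM40 in red, experiment 1 filled and experiment 2 open. MYC is highest at 118 to 154 in all 4 libraries, and the control library of experiment 2 is the lowest of the 4 for every gene shown except ASCL2, in which it is the highest.

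Among the stem cell genes, LGR5, the R-spondin receptor that marks crypt base columnar cells (gene ID 8549, hg19 chr12:71833550-71980088), had an FPKM of 2.08 in the control and 2.29 in the Myc-TRIM40 cells of experiment 1, and of 0.401 and 1.15 in experiment 2. These were 592, 654, 121 and 340 reads. The control of experiment 2 was low, and the groups overlapped, with means of 1.24 ± 1.19 and 1.72 ± 0.805 (SD, n = 2). The ratio of normalised reads was 1.08 (95% exact counting interval 0.961 to 1.20) in experiment 1 and 2.78 (2.26 to 3.46) in experiment 2. Such intervals cover counting error only, and in bulk RNA fewer cells of a type and less RNA per cell cannot be told apart. The fitted log2 fold change was 0.77 with a 95% confidence interval of -0.01 to 1.54 (edgeR adjusted p = 0.888). In fits without the block it was -0.29 without the control of experiment 2, -0.13 without the first Myc-TRIM40 library, and 2.00 without the control of experiment 1.

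The transcripts to which LGR5 reads were assigned also set that control apart. The coding variant 1 took 63.9% and 72.0% of the LGR5 reads in experiment 1 and 93.5% in the Myc-TRIM40 library of experiment 2, but 5.79% in the control of experiment 2. There, the non-coding variant 4 took 94.2%, or 114 of 121 reads, against 6.47% to 11.7% in the other libraries. The LGR5 variants share their start and end, and variant 4 is the shortest, at 4311 bases. The split between them thus rests on the estimated assignment. Of the genes in its length bin, 0.7% had a lower ratio of the experiment 2 control to the experiment 1 control than LGR5, and 1.49% of all tested genes were at least 4-fold lower in it, LGR5 and RNF43 among them.

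ASCL2, the basic helix-loop-helix factor that maintains the stem cell programme (gene ID 430, chr11:2289728-2292182), had values in the other direction. Its FPKM was 3.37 in the control and 2.69 in the Myc-TRIM40 cells of experiment 1, and 6.51 and 4.03 in experiment 2. The Myc-TRIM40 library was the lower in both experiments, but the groups overlapped. The ratio of normalised reads was 0.779 (0.669 to 0.906) and 0.567 (0.506 to 0.636). The fitted log2 fold change of -0.59 (95% confidence interval -1.14 to -0.05) had an unadjusted p of 0.0367 and an adjusted p of 0.888 in edgeR. In fits without the block it was -0.02 without the control of experiment 2 and -1.11 without that of experiment 1. It was -0.39 without the Myc-TRIM40 library of experiment 1 and -0.97 without that of experiment 2. Its size thus rested on which library was left out. With the trend on transcript length removed, the log2 ratios were -0.35 and -0.58.

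EPHB2, a receptor tyrosine kinase that positions cells along the crypt axis (gene ID 2048, chr1:23037331-23247993), was near the lower end of the range, with an FPKM of 0.511 and 0.663 in experiment 1 and 0.215 and 0.294 in experiment 2 for control and Myc-TRIM40. Both experiments gave a similar ratio of reads, 1.27 (1.1 to 1.46) and 1.25 (1.01 to 1.54), and the values of the 2 experiments did not overlap. For EPHB2 edgeR fitted a log2 fold change of 0.33 (-0.24 to 0.90, adjusted p = 0.888). EPHB2 has the longest most-read transcript of the members, of 11036 bases, and the log2 ratio of experiment 2 was -0.36 once the length trend was removed. In the control of experiment 2, 95.2% of its reads were assigned to a transcript of 11039 bases that took 20.9% to 36.4% in the other libraries. These were 158 of 166 reads. That transcript shares its start and end with the one of 11036 bases, so the split between them rests on the estimated assignment.

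MYC, the transcription factor that drives growth and division and a classical Wnt target in colon cancer cells (gene ID 4609, chr8:128748315-128753680), had an FPKM of 154 and 147 in experiment 1 and 118 and 126 in experiment 2. The library pairs lay close together, and the groups overlapped, with means of 136 ± 25.5 for control and 137 ± 15.1 for Myc-TRIM40 (SD, n = 2). With 19113 to 22763 reads per library MYC was also the member with the most reads. Its fitted log2 fold change was -0.06, and its 95% confidence interval ran from -0.53 to 0.40 (edgeR adjusted p = 0.968). The sign depended on the scaling, and was 0.01 with library totals in place of TMM.

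Among the intracellular inhibitors, AXIN2, the scaffold of the destruction complex that is induced by the pathway it restrains (gene ID 8313, chr17:63524683-63557740), had an FPKM of 22.6 and 23.1 in experiment 1 and 16.6 and 25.1 in experiment 2. It was the only member whose groups did not overlap in FPKM, with both Myc-TRIM40 libraries above both controls, as were 15.2% of all tested genes. No member had both Myc-TRIM40 libraries below both controls, as 6.48% of tested genes had. In experiment 1 the values were nearly equal, and the ratio of reads there was 1.0 (0.965 to 1.04), against 1.39 (1.34 to 1.44) in experiment 2. For AXIN2 edgeR fitted a log2 fold change of 0.24 (-0.29 to 0.76, adjusted p = 0.892).

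NKD1, an inhibitor that binds Dishevelled (gene ID 85407, chr16:50582241-50674771), had few reads: 95 in the control and 228 in the Myc-TRIM40 cells of experiment 1, and 47 and 81 in experiment 2. Its FPKM was 0.174 and 0.417, then 0.0776 and 0.144. Myc-TRIM40 was the higher in both experiments, although the Myc-TRIM40 value of experiment 2 lay below the control of experiment 1, so that the groups overlapped. The ratios of reads were 2.34 (1.83 to 3.0) and 1.71 (1.18 to 2.5). For NKD1 the log2 fold change over both experiments was 1.01 (0.21 to 1.80), with an unadjusted p of 0.0187 and an adjusted p of 0.888 in edgeR. In fits without the block it ran from 0.14 without the Myc-TRIM40 cells of experiment 1 to 1.68 without the control of that experiment, and it was 0.66 without the control of experiment 2 and 1.66 without the other Myc-TRIM40 library. With the length trend removed the log2 ratio was 1.15 in experiment 1 and 0.14 in experiment 2.

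**Figure D2:**
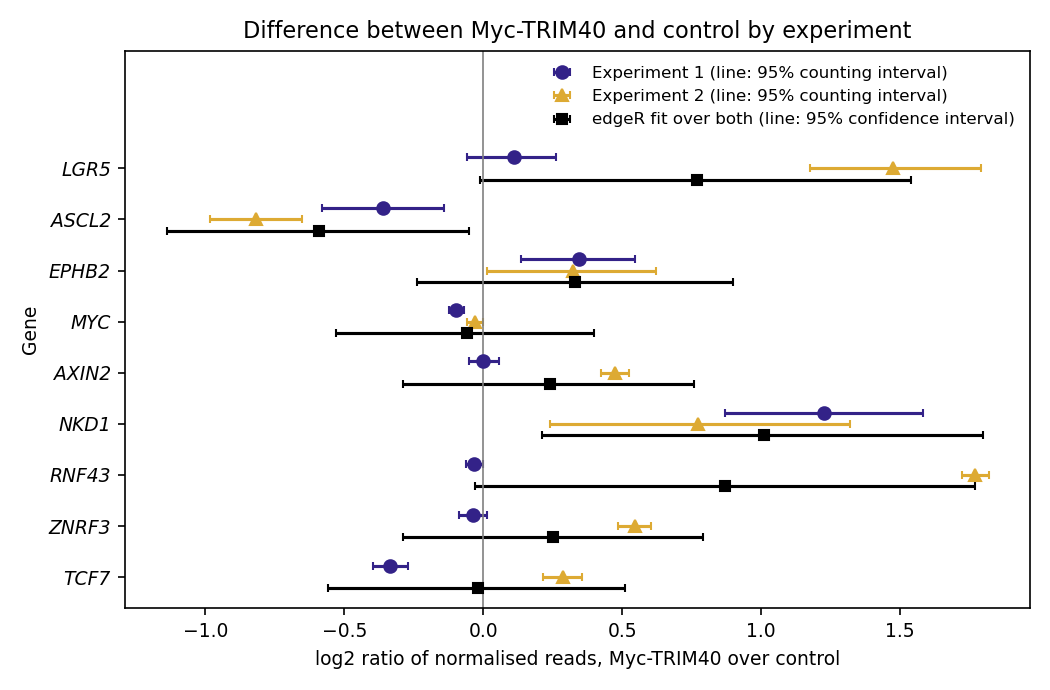
Log2 ratio of normalised reads, Myc-TRIM40 over control, for 9 members in experiment 1 (circles) and experiment 2 (triangles) with 95% counting intervals, and the edgeR fit over both (squares) with its 95% confidence interval. RNF43 and LGR5 are near 0 in experiment 1 (-0.03 and 0.10) and far above it in experiment 2 (1.77 and 1.43), whereas ASCL2 lies below 0 and NKD1 and EPHB2 above 0 in both.

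RNF43 and ZNRF3 are membrane E3 ubiquitin ligases that remove Frizzled receptors from the cell surface. RNF43 (gene ID 54894, chr17:56429861-56494943) had an FPKM of 51.9 and 52.1 in experiment 1 and of 12.5 and 43.5 in experiment 2, for control and Myc-TRIM40. The control of experiment 2 alone was low, the groups overlapped, and the means were 32.2 ± 27.9 and 47.8 ± 6.1 (SD, n = 2). The ratio of reads was 0.978 (0.959 to 0.999) in experiment 1 and 3.41 (3.3 to 3.53) in experiment 2, with 4575 reads in the low library, so that counting error was small beside the difference between the experiments. Across both experiments edgeR fitted a log2 fold change of 0.87 (-0.03 to 1.77, adjusted p = 0.888), and in fits without the block it was -0.14 without the control of experiment 2 and 1.87 without that of experiment 1. Removing the length trend left a log2 ratio of 1.40 in experiment 2.

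ZNRF3 (gene ID 84133, chr22:29279755-29453476) had the same pattern on a smaller scale, with an FPKM of 15.2 and 15.1 in experiment 1 and 8.54 and 13.6 in experiment 2. The control of experiment 2 was again the lowest, and the groups overlapped. The ratio of reads was 0.974 (0.941 to 1.01) and then 1.46 (1.4 to 1.52), and the fitted log2 fold change was 0.25 (-0.29 to 0.79, adjusted p = 0.889 in edgeR). Its log2 ratio in experiment 2 was 0.10 with the length trend removed, and 60.2% of the genes in its length bin had a lower ratio.

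RNF43 has 2 starts in the deposited annotation, 14861 bases apart. In the control of experiment 2 the shares of reads assigned to them differed from the other libraries. For this reason, the sequences upstream of the corresponding RefSeq starts are shown. They are the 250 bases before the start sites in RefSeq (GRCh38.p14, chr17:58417535-58417784 and chr17:58402722-58402971, both on the minus strand), read 5′ to 3′, with capitals marking CTTTGT or its reverse complement.
RNF43 upstream start: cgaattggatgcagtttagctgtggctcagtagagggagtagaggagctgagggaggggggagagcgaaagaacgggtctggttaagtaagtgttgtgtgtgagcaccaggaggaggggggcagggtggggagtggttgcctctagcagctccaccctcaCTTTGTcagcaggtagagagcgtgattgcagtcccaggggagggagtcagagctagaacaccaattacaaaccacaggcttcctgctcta
RNF43 downstream start: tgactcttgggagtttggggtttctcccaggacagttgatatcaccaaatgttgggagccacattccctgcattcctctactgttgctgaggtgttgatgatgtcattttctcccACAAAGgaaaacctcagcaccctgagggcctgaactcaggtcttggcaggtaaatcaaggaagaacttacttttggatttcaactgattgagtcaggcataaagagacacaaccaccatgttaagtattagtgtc
The motifs searched were CTTTGA and CTTTGT on both strands, the core that TCF/LEF factors recognise. The match lay 90 bases before the upstream RefSeq start, and 135 bases before the downstream RefSeq start on the opposite strand. These RefSeq starts are not the same distance apart as the deposited ones. A window may thus be displaced from the start to which reads were assigned. Of all 35116 windows of this length, 22.8% held a match. Windows were available for 4 of the 10 members, and 3 of their 7 windows held a match, all in RNF43 and TCF7. The EPHB2 windows, without a match, cover almost the same stretch and so are not separate. A match says only that these letters are present.

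Reads assigned to the RNF43 transcripts of the upstream start made up 97.6% and 97.4% of the gene's reads in experiment 1 and 96.2% in the Myc-TRIM40 library of experiment 2, but 68.8% in the control of experiment 2. The downstream start, used by variant 3, took 31.2% in that library, or 1427 reads, against 451, 481 and 598 reads in the others. Variant 1, from the upstream start, had 1918 reads in that library, against 11666 to 15748 in the others. The RNF43 transcripts share their end, and variant 3 is the shortest, at 4625 bases against 5543 and 5746. The split between the starts thus rests on the estimated assignment, and the part of transcript length in it was not tested. A share at least 20 points lower in the control of experiment 2 than in each other library was found in 4.17% of the 3258 genes with at least 2 starts and enough reads. For ZNRF3 the upstream share was 91.5% and 95.4% in experiment 1 and 98.0% and 92.3% in experiment 2, and the direction differed between the experiments.

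The nuclear factors differed widely in level. TCF7, which binds beta-catenin at Wnt response elements (gene ID 6932, chr5:133450389-133483920), had an FPKM of 22.1 and 17.8 in experiment 1 and of 12.5 and 16.6 in experiment 2, for control and Myc-TRIM40. It was lower with Myc-TRIM40 in experiment 1 and higher in experiment 2, with ratios of reads of 0.793 (0.759 to 0.828) and 1.22 (1.16 to 1.28). The fitted log2 fold change was -0.02 (-0.56 to 0.51, adjusted p = 0.994 in edgeR), and its sign turned with library totals in place of TMM, to 0.05. LEF1 (gene ID 51176, chr4:108968701-109090112), the TCF/LEF factor typical of lymphoid cells and of many Wnt-active tumours, had 5 reads in the control of experiment 2 and 0 reads in each other library, where a count of 0 allows up to 3 reads. It was not tested, and no fold change is given.

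TCF7 makes long proteins, with the beta-catenin binding domain, from an upstream start and short proteins without it from a start 865 bases downstream in the files' annotation. The downstream start in RefSeq need not fall on the same base. The 250 bases before it (GRCh38.p14, chr5:134115363-134115612, plus strand) are shown because the groups did not overlap in the share of reads assigned to each start. They lie within the gene, after the start codon of variant 1 in GENCODE (GRCh38) at position 134114907, and held no match. Another TCF7 window, before a RefSeq start at position 134123618, held 2 matches and is not shown.
TCF7 downstream start: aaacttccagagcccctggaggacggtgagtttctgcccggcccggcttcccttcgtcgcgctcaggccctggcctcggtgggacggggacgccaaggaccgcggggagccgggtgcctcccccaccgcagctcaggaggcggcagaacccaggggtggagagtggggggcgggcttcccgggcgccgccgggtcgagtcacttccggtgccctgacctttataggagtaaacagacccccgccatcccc

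The upstream start took 83.2% of the TCF7 reads in the control and 92.4% in the Myc-TRIM40 cells of experiment 1, and 78.6% and 87.4% in experiment 2. Both Myc-TRIM40 libraries lay above both controls, with means of 89.9% ± 3.57 and 80.9% ± 3.23 (SD, n = 2), and the differences were 9.2 and 8.7 points. An exact two-sided permutation test, made without the pairing, gave p = 0.333. This is the smallest value that 2 libraries against 2 can give, and any groups that lie apart give it. Of the 3258 genes with at least 2 starts, 13.7% had groups apart in this direction, and 5.95% had a share at least 5 points higher in both experiments. The transcripts behind the difference were not the same in the 2 experiments. In experiment 1 the downstream variant 9 went from 11.8% to 2.12%, whereas in experiment 2 it stood at 11.2% and 10.7%, and the non-coding variant 6 went from 5.47% to 0%.

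**Figure D3:**
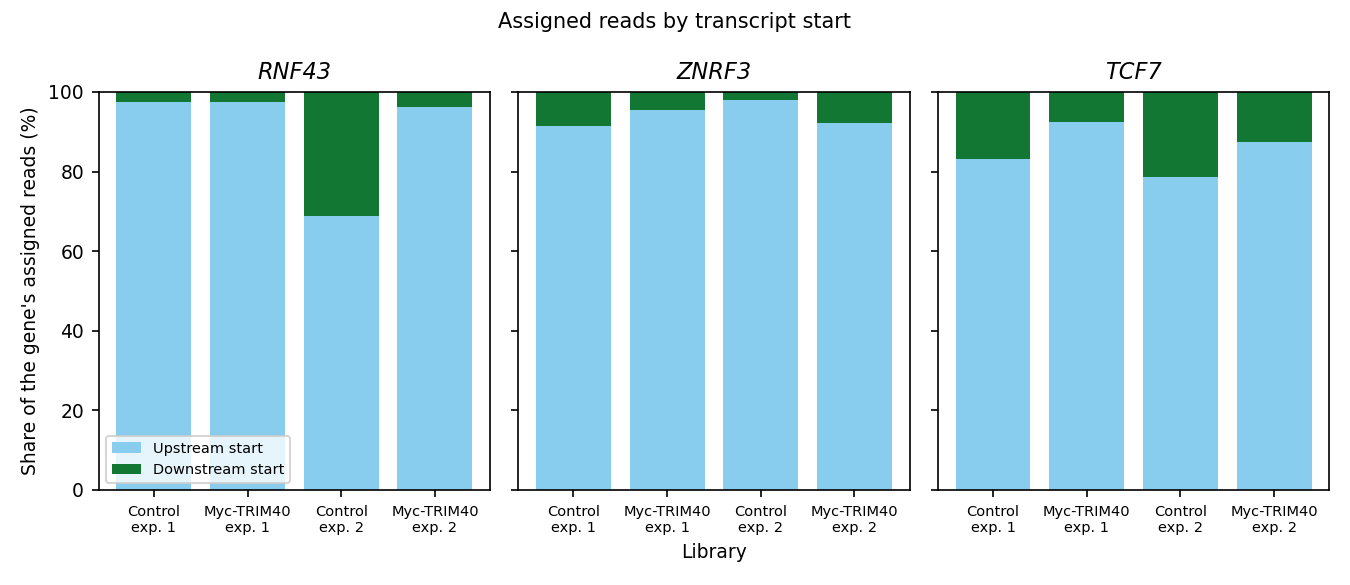
Share of the reads of RNF43, ZNRF3 and TCF7 (percent) assigned to transcripts of the upstream (blue) and downstream (green) start in each library. The downstream share of RNF43 is 31.2% in the control of experiment 2 and at most 3.79% in the others, and the upstream share of TCF7 is 92.4% and 87.4% with Myc-TRIM40 against 83.2% and 78.6% in the controls.

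The members as a list moved with the experiment. In experiment 1, 3 of the 9 tested members had a log2 ratio above 0, where 50.2% of all tested genes had. The median of the members was -0.03, against 0.00 over all tested genes. In experiment 2, 7 of 9 were above 0, where 52.0% of all tested genes were, and the median was 0.47, against 0.03 for all. Between the controls, 8 of 9 were lower in experiment 2 than in experiment 1, with a median log2 ratio of -0.74, where 49.6% of all tested genes were lower. With the trend on transcript length removed, the medians of the members were -0.06 and 0.14. In experiment 2, 7 of 9 were then still above 0, although not all the same genes. The part that transcript length plays in the members' values beyond this trend was not tested.

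By the ratio of FPKM + 1 with a threshold of 1.5-fold, 0 members passed in experiment 1, where 1.66% of all genes were higher and 0.466% lower. In experiment 2 LGR5, RNF43 and ZNRF3 passed, all higher, where 4.71% of all genes were higher and 1.59% lower. In both experiments together 0 members passed, where 0.26% of all genes were higher in both and 0.0506% lower. The scale of FPKM + 1 understates the change of low genes such as NKD1 and EPHB2. The shares of all genes given here are over 27685 genes, of which 14868 had enough reads to be tested.

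**Figure D4:**
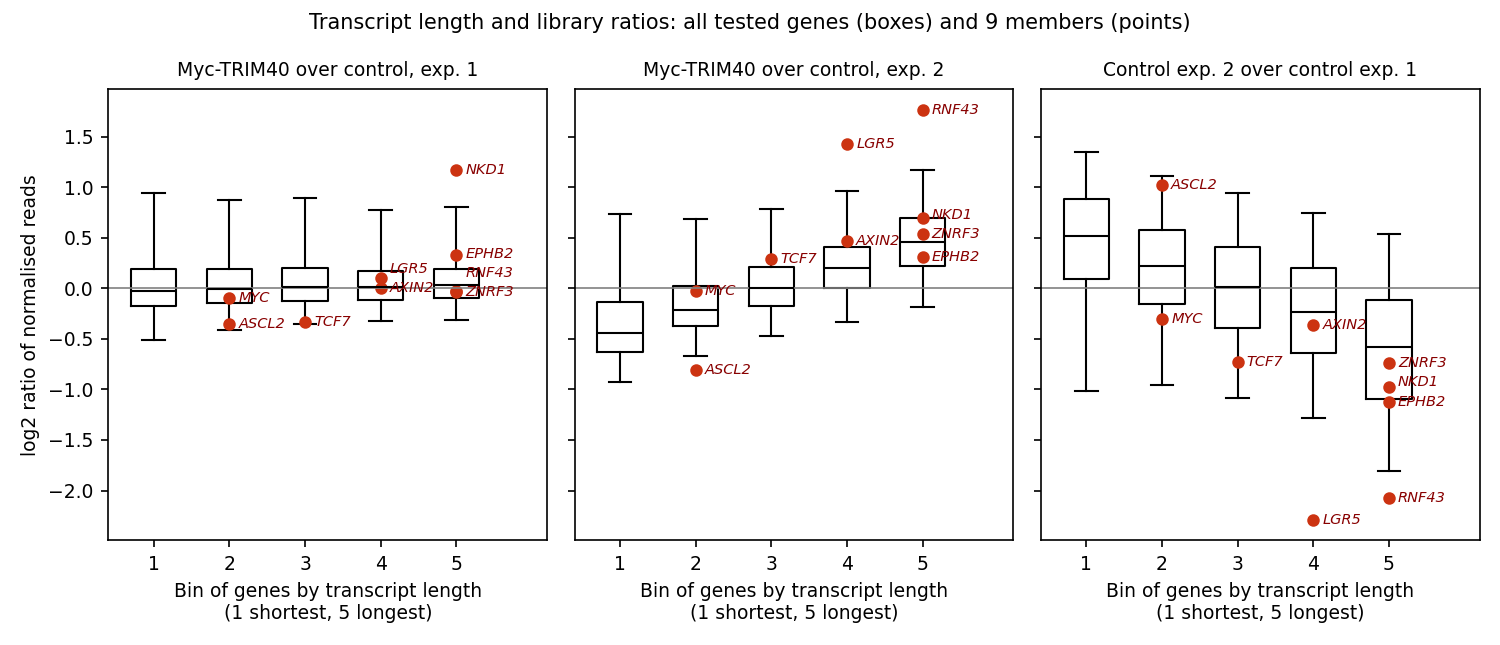
Log2 ratio of normalised reads in 5 equal bins of genes by transcript length (bin 1 shortest), for Myc-TRIM40 over control in each experiment and for the control of experiment 2 over that of experiment 1. Boxes show the median and quartiles of all tested genes with whiskers from the 5th to the 95th percentile, and points the 9 members. The medians lie flat in experiment 1, climb from -0.44 to 0.46 in experiment 2 and fall from 0.52 to -0.58 between the controls, with RNF43 at 1.77 and -2.07 beyond the whiskers.

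The rest of the pathway was read from 6 lists with 115 genes, of which 24 had no reads and 82 were tested. Of those, 0 were called by edgeR or DESeq2, where 0.0605% and 0.363% of all tested genes were, and 2 had an unadjusted p under 0.05 in each, where 4.54% and 3.65% of all tested genes had. The median fitted log2 fold change was 0.10. In experiment 1, 39 of the 82 were above 0, where 50.2% of all tested genes were, with a median of -0.01. In experiment 2, 54 were, where 52.0% of all tested genes were. The median there was 0.13, which came to 0.03 with the length trend removed. In the control of experiment 2, 62 of the 82 were lower than in that of experiment 1, against 49.6% of all tested genes. By the ratio of FPKM + 1, 0 of the 115 passed 1.5-fold in both experiments.

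Of the 25 ligand and secretion genes 11 had no reads and 10 were tested, with a median of 0.24. The most abundant was WLS, the carrier of Wnt proteins to the surface, with an FPKM of 45.0 and 50.2 in experiment 1 and 33.4 and 39.3 in experiment 2 (control, then Myc-TRIM40). The 15 tested receptor genes had a median of 0.08, and their most abundant, LRP5, a Wnt co-receptor, had an FPKM of 113 and 119, then 35.5 and 61.6, with both libraries of experiment 2 below both of experiment 1. The 5 tested antagonists had a median of 0.01, and DKK1, which blocks the LRP co-receptors, had an FPKM of 39.0 and 48.8, then 48.1 and 43.6.

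The 16 genes of Dishevelled, the destruction complex and beta-catenin had a median of 0.18, 15 of them were lower in the control of experiment 2 than in that of experiment 1, and CSNK1A1, the kinase that primes beta-catenin, had an FPKM of 63.8 and 70.2, then 51.3 and 64.4. The 17 tested TCF partners had a median of 0.09, with AES, a short Groucho-family protein, at 140 and 133, then 147 and 120. The 19 tested further targets and crypt genes had a median of 0.02, with ETS2, a transcription factor, at 159 and 138, then 133 and 144. In edgeR the 2 genes of an unadjusted p under 0.05, named here after their values were seen, were PROX1 and APC2. PROX1, a homeobox factor and Wnt target in colon tumours, had an FPKM of 0.539 and 1.18 in experiment 1 and 0.21 and 0.557 in experiment 2, a fitted log2 fold change of 1.19 (SE 0.25) and an edgeR adjusted p of 0.356. APC2, a relative of APC, was lower still, with 17 to 85 reads per library and an edgeR adjusted p of 0.888. None of the other named pathway genes passed the edgeR test, in which their adjusted p ran from 0.888 to 0.998.

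**Figure D5:**
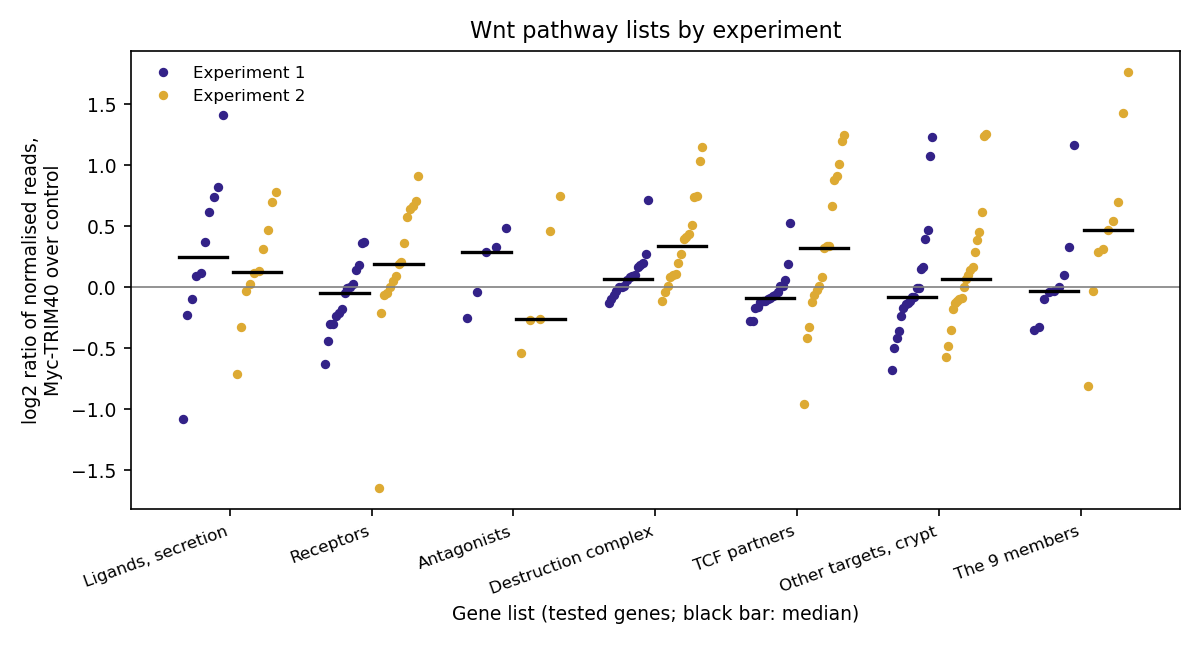
Log2 ratio of normalised reads, Myc-TRIM40 over control, of each tested gene of 6 Wnt pathway lists and of the 9 members in experiment 1 (blue) and experiment 2 (yellow), with black bars at the medians. The median of the members goes from -0.03 to 0.47 between the experiments, and that of the TCF partners from -0.09 to 0.32.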

How the data were processed

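RNA libraries were made from total RNA with a stranded TruSeq mRNA kit. The authors deposited, per RefSeq transcript, an estimated count of reads, the FPKM and the transcript length (another deposited value, in bases), in a file for each experiment that held a control and a Myc-TRIM40 library; for experiment 2 they also deposited TPM. The submitters' processing notes name HISAT2 2.1.0, StringTie 1.3.4d and hg19. For experiment 1, the FPKM values were rescaled here to TPM.

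The 63714 transcripts were summed to 27685 genes. Counts were whole numbers and were tested with edgeR 4.0.16 (glmQLFit, glmQLFTest, R 4.3.3) after filterByExpr and TMM, with the experiment as a block and Benjamini-Hochberg adjustment over 14868 genes. The pairing comes from the replicate numbers and from the files, and the deviations of same-numbered libraries correlated at 0.56. There was 1 residual degree of freedom, and the common dispersion was 0.0484. Nothing in the labels says that the libraries came from separate cultures, so p-values measure the spread between these libraries only. DESeq2 1.42.0, limma 3.58.1 on log2(FPKM + 1), other scalings, filters and left-out libraries were tried as alternatives, and the edgeR and DESeq2 fits were tested on simulated data. Log2 ratios within an experiment used CPM with 0.1 added, and the trend on transcript length was a lowess curve with a span of 0.5. Shares of starts were computed for genes with at least 100 reads in every library. The pseudocount on FPKM was 1. Totals were 60954602, 61025795, 67424698 and 62582054 reads (control and Myc-TRIM40 of experiment 1, then of experiment 2), and the number of libraries limits the precision. Reads shared between RNF43 or ZNRF3 and an antisense neighbour cannot be judged from the files, and those neighbours had at most 28 reads.

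The members and gene lists were chosen with earlier results of these data known. The genes named were all members, TRIM40, the most abundant gene of each list, any gene past a threshold and some further cell type markers. Most abundant in the marker lists were KRT8 (epithelial), COL1A1 (fibroblast) and LYZ (leukocyte). The microarray experiments of the study were not analysed here.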

Additional observations from a re-analysis of the deposited data

How the results depend on the processing

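No member was called under any of these alternatives. The signs of NKD1 and ASCL2 did not turn, but with 1 library left out their values ran from 0.14 to 1.68 and from -1.11 to -0.02, and NKD1 was 0.18 in limma. Over all genes the count of 9 became 0 without the replicate block (153 at an unadjusted p under 0.05), 54 in DESeq2 (45 higher), 0 without the filter (447 unadjusted), 3 in limma and 0 with the most-read transcript only (335 unadjusted), and 12 to 116 with 1 library left out, a choice made after seeing the data, in a fit without the block where the lone library is assumed to vary like the pair. The block changed no call on a member or a pathway gene, but without it LGR5 was 0.44 and RNF43 0.53. With the most-read transcript only, LGR5 was 2.68 (SE 1.83) and EPHB2 1.82 (SE 1.4). The median of the members, 0.25, ran from -0.13 to 0.58 with libraries or an experiment left out: -0.12 without the control of experiment 2, -0.13 without the first Myc-TRIM40 library, -0.03 in experiment 1 alone and 0.47 in experiment 2 alone. It was 0.02 with the trend on transcript length removed, another alternative chosen after seeing the data. Direction turned for MYC (0.02 in limma, 0.01 with library totals, -0.19 to 0.05 with a library left out), TCF7 (0.04 in limma, 0.05 with library totals, 0.24 with the most-read transcript, -0.37 to 0.30 with a library left out, 0.29 in experiment 2 alone), LGR5 (-0.29 to 2.00), EPHB2 (-0.37 to 0.98 with a library left out, -0.03 with the length trend removed), RNF43 (-0.14 to 1.87, and -0.03 in experiment 1 alone), ZNRF3 (-0.09 to 0.58, and -0.04 in experiment 1 alone) and AXIN2 (-0.00 in experiment 1 alone, 0.08 to 0.38 with a library left out). Members past 1.5-fold numbered 3 in experiment 2 alone, and pathway genes past 1.5-fold, 0 in both experiments, numbered 2 with a pseudocount of 0.1, 1 by TPM, 13 in experiment 2 alone and 2 in experiment 1 alone. The cause of these shifts was not tested. With 2 libraries per group, the standard errors of the members reach 0.39 on the log2 scale, and members such as NKD1, at 47 to 228 reads, carry wide counting intervals.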
